A study of Mus musculus with 2 samples.

Results

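Genes of the cytosolic protein-folding machinery were compared between the lineage- Sca1+ c-Kit+ (LSK) cells of Ago2 Hem KO bone marrow and of Control bone marrow, both from C57BL/6J mice. The genes were chosen by symbol: all that start with Hsp or Dnaj, together with Cct2 to Cct8 and Tcp1. The mitochondrial and endoplasmic reticulum (ER) chaperone genes Hspd1, Hspe1, Hspa9, Hspa5, Hsp90b1, Dnajb9, Dnajb11, Dnajc3 and Dnajc10 and the matrix proteoglycan gene Hspg2 were left out. This gave 69 genes on 133 probes, of 19057 genes named on the array. Cells of this surface phenotype include the blood-forming stem cells and multipotent progenitors. Ago2 belongs to the Argonautes through which microRNAs silence messenger RNAs. Each genotype was measured once, on 1 Illumina bead array. The driver of the deletion, the age of the mice and whether animals were pooled are not given in the sources used here. With 1 array per genotype no test could be run, so differences are given as values of these arrays, in log2 units as Ago2 Hem KO minus Control, and their precision is limited by having so few arrays.

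Hsp70 proteins bind exposed hydrophobic stretches of unfolded proteins and release them in cycles of ATP hydrolysis. J proteins, named after DnaJ of Escherichia coli, deliver clients to Hsp70 and start the hydrolysis, and nucleotide exchange factors such as Hsp110 (Hsph1) reset it. Hsp90 acts later on kinases and steroid receptors, small heat shock proteins hold aggregating proteins, and the chaperonin TRiC, a ring of Tcp1 and Cct subunits, folds actin and tubulin. The transcription factor Hsf1 raises many of these genes when unfolded proteins accumulate, and haematopoietic stem cells are known for low rates of protein synthesis. The symbol rule also takes in J proteins that work elsewhere, such as Dnaja3, Dnajc11, Dnajc15, Dnajc19, Dnajc28 and Dnajc30 in mitochondria and Dnajb12, Dnajb14 and Dnajc1 in the ER membrane, so the set is not cytosolic throughout. Hspb11, named as a small heat shock gene, encodes an intraflagellar transport protein.

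On the arrays, 15594 of 45281 probes in the Ago2 Hem KO sample and 14834 in the Control sample were detected above background, at a detection p under 0.01. The 75th percentile of the raw signal was 134.5 on the Ago2 Hem KO array and 121.4 on the Control array. The normalization used here gives both arrays the same distribution of values. It thus assumes that an unchanged gene has a higher raw signal in Ago2 Hem KO, and normalized differences can be negative where the raw signal is higher. With 1 array per genotype this assumption could not be tested, and the sign of small differences depends on it. The targeted gene Ago2 was 2.44-fold lower on its brightest probe (179.5 in Ago2 Hem KO, 288.3 in Control), 1.73-fold lower on a second (180.9 and 225.9) and 1.36-fold on a further, dim one (102.8 and 105.9). Whether these probes lie in the deleted part was not analysed here. Of the gate's own markers, Kit (c-Kit) was well detected, at 2793.3 in Ago2 Hem KO and 2071.2 in Control. Ly6a, which encodes Sca1, was not analysed here, and Flt3 was not detected on either array. Erythroid markers moved with genotype. The 9 of 14 that were detected on both arrays were all higher in Ago2 Hem KO, with a median difference of 1.24 and a summed normalized signal of 6116 against 3194 in Control. Epor, Slc4a1, Rhag and Ermap were detected in Ago2 Hem KO only, and Alas2 on neither array. All 6 detected B cell markers were lower, with a sum of 735 against 1001. The 6 detected LSK markers were all higher, with a median of 0.27 and a sum of 4902 against 4099. Of 9 macrophage markers, 4 were detected on both arrays (3 above 0, and Cd14 at -0.35, with a sum of 1247 against 1157), C1qa, C1qb and C1qc in Ago2 Hem KO only, and Adgre1 and Cd5l on neither. Of 8 detected neutrophil markers 2 lay above 0, and Retnlg (-1.12) and Ltf (532.9 in Ago2 Hem KO and 852.8 in Control) were the lowest, with a sum of 24961 against 24866. The part of these shifts in the chaperone values was not tested, and more cells of a type and more RNA per cell cannot be told apart in bulk RNA.

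Over the 39 chaperone genes detected on both arrays, the median lay where that of all genes lay. The median difference was -0.05, the same as the -0.05 of all 8212 genes detected on both arrays. Of the 39 genes, 17 lay above 0 (43.6%), against 41.8% of all genes. Only Dnaja2 was at least 1.5-fold higher in Ago2 Hem KO and only Dnajc12 at least 1.5-fold lower, against a background of 1.9% of all genes in each direction. No member reached 2-fold in either direction on its brightest probe, where 0.304% of all genes were higher and 0.134% lower by that much. A share of 1 gene in 39 is close to that background. Most members differed by little, with 29 of the 39 within 1.25-fold, or 74.4%, against 79.0% of all genes. Under scaling of the arrays to the same median, 32 of the 39 lay above 0, and the median of all genes was then 0.16.

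**Figure D1:**
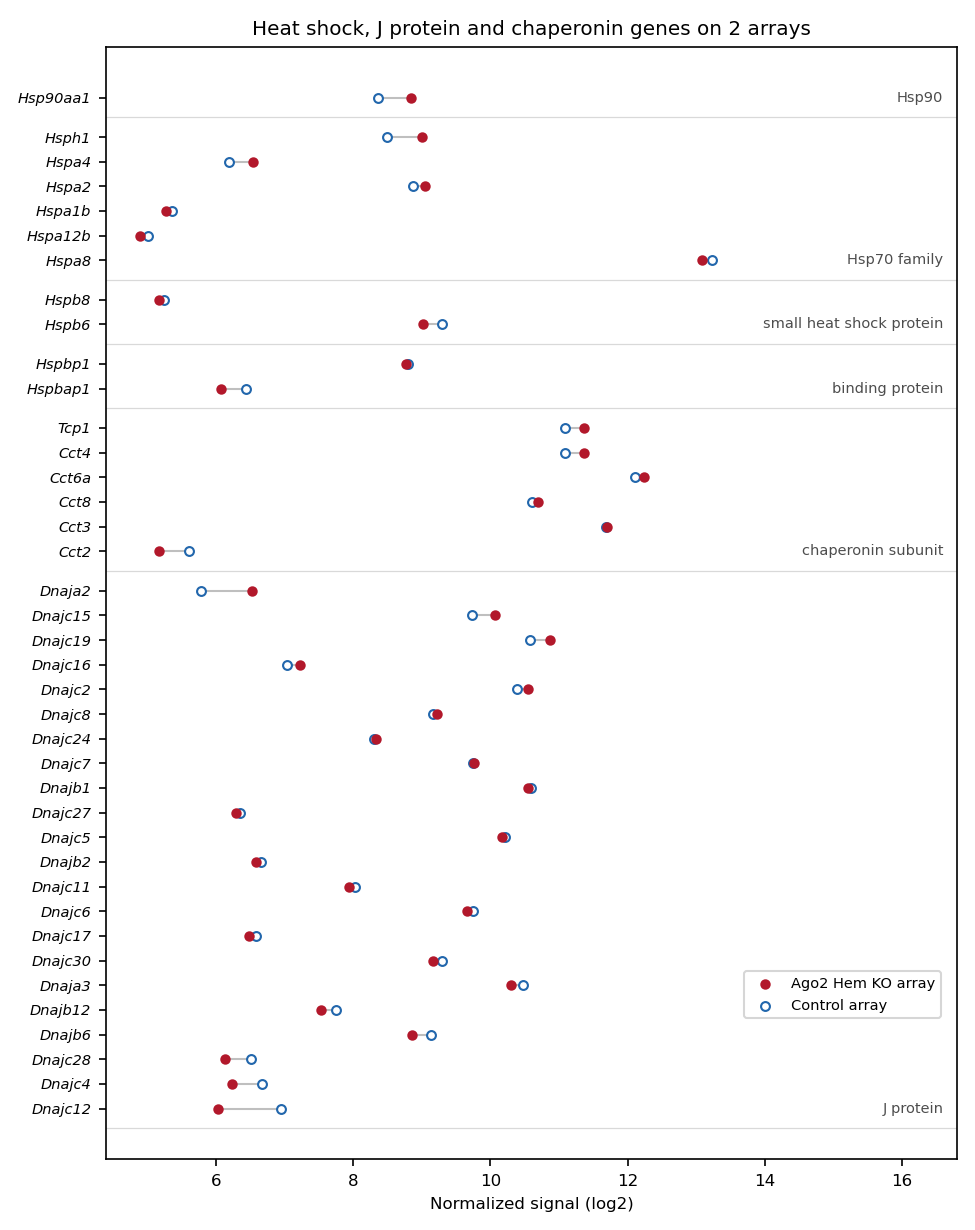
Normalized log2 signal (x axis) of each of the 39 chaperone genes detected on both arrays (rows, by role), on the brightest probe. Filled points are the Ago2 Hem KO array and open points the Control array, 1 array each; pairs mostly sit close together, and Dnajc12 and Dnaja2 are furthest apart, at -0.92 and 0.73.

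Another 6 genes were detected in Ago2 Hem KO only, 0 in Control only and 24 on neither array. The same side was ahead across the array, with 898 of all 34885 named probes detected in Ago2 Hem KO only and 390 in Control only, against 6 and 1 of the 133 member probes. Detection on both arrays reached 56.5% of the members, against 43.1% of all named genes. Among the 24 were genes known mainly from testis (Hspa1l, Hspb9, Dnajb3, Dnajb7, Dnajb8, Dnajb13, Dnajc5b and Dnajc5g) and from muscle (Hspb2, Hspb3 and Hspb7). A probe without signal does not show that a gene is silent. Cct7, a subunit of the chaperonin ring, gave 94.6 on its single probe on both arrays, which is not above background. The widely expressed Dnaja1 and Hspa14 were likewise not detected, on 2 probes each.

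Hsp90aa1, the stress-inducible cytosolic Hsp90 gene, was higher in Ago2 Hem KO. Its brightest probe gave a signal of 570.4 in Ago2 Hem KO and 366.8 in Control, a normalized difference of 0.49 (1.41-fold). A second probe gave 126.0 and 99.3, a difference of 0.62, and a further probe was not detected on either array. Both detected probes gave the same sign. The second is dim, and its difference was 0.22 without background correction, 0.33 with an offset of 50 and 0.20 in the authors' value table, all under 1.5-fold. The constitutive partner gene Hsp90ab1 was not analysed here.

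Among the Hsp70 family, 6 of 12 genes were detected on both arrays, and 3 lay above 0 and 3 below. Hsph1, the Hsp110 nucleotide exchange factor, gave 627.4 in Ago2 Hem KO and 400.7 in Control, a difference of 0.51 (1.43-fold). Hspa4, another Hsp110-type exchange factor, gave 173.7 and 135.6, a difference of 0.34. Hspa2, best known from male germ cells, gave 642.7 and 504.5, a difference of 0.17 on the brighter probe and 0.08 on the other. Hspa12b, a distant Hsp70 relative, was barely above background at 103.0 and 99.2. Hsph1, Hspa4 and Hsp90aa1 kept a positive sign in each of the 9 alternatives tried, and 18 of the 25 members followed through them kept their sign. For Hsph1 and Hspa4, with 1 detected probe each, only other background and normalization settings could change the value.

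Hspa8, the constitutive Hsp70 known as Hsc70, gave different answers on its 3 probes. The brightest probe, ILMN_1246458, gave 9280.3 in Ago2 Hem KO and 8904.0 in Control, a normalized difference of -0.16. Probe ILMN_2918479 gave 8406.2 and 6637.3, a difference of 0.15. Probe ILMN_1249586 gave 3129.8 and 1325.2, a difference of 1.05 (2.08-fold). The range between these probes was 1.21, and of all 3016 genes with more than 1 probe detected on both arrays, 0.962% had a range of at least 1. Probe ILMN_1249586 stayed between 1.01 and 1.25 under the 5 other background and normalization settings, while the brightest changed from -0.16 to 0.03 when arrays were scaled to the same median. Where in the transcript each probe lies was not analysed here, and the cause of the disagreement was not tested.

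The strictly heat-inducible Hsp70 genes were close to background. Hspa1b gave 113.7 in Ago2 Hem KO and 106.7 in Control, a difference of -0.08 that was 0.11 when the arrays were scaled to the same median. Hspa1a was detected in Ago2 Hem KO only, at 110.5 against 89.3 in Control, which allows a fold of at least 1.17. Without background correction this bound was 1.05, and the other Hspa1a probes were not detected on either array. Hspa1a and Hspa1b are near-identical copies, so which of them a probe measured is uncertain. Hspa4l was detected in Ago2 Hem KO only, at 103.7 against 87.1, and its value bounds no fold above 1. Dnajb1, the J protein that works with inducible Hsp70 and is itself induced by heat, was well detected and gave 1689.1 in Ago2 Hem KO and 1487.5 in Control, a difference of -0.04. The small heat shock genes known for stress induction were also low: Hspb1 was not detected on either array, and Hspb8 gave 110.7 and 104.1, a difference of -0.07. Hspb6, a small heat shock gene best known from muscle, gave 633.0 and 646.0, a difference of -0.27.

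Of a list of heat-inducible genes, 19 had a named probe and 13 had signal in both samples. Their median difference was 0.12 with 8 above 0 (61.5%), against -0.05 and 41.8% for all genes. Of the others, Hspa1a, Hspa4l and Dnajb4 were detected in Ago2 Hem KO only, and Dnaja1, Hspb1 and Cryab on neither array. Of the 13, 2 were at least 1.5-fold higher and 0 lower by that much, against 1.9% of all genes in each direction. Both are the mitochondrial genes Hspe1 (1.46) and Hspd1 (0.71) that the symbol rule leaves out. They enter the median of 0.12, and the median without them is not given here. The 8 above 0 also include Chordc1, at 0.0 after rounding. The members on this list ran from -0.16 (Hspa8) to 0.51 (Hsph1). Hsf1 was not analysed here, and Hsf2 gave 103.5 in Ago2 Hem KO and 108.6 in Control, close to background. Another Hsf2 probe, detected in Ago2 Hem KO only, lay the other way at 104.7 against 94.4, also close to background.

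Hsf1 binds heat shock elements, inverted repeats of a short GAA unit, and the promoter windows that RefSeq gives for build GRCm38.p6 (250 bases before to 50 after a start) were searched for their letters. Of the 69 genes, 57 had a window. Of the 39 detected on both arrays, 31 had one. Hspa8, Hsp90aa1, Cct4, Dnajc2, Dnajc5, Dnajc11, Dnajc12 and Dnajc30 had none and were not searched. A pair of units, GAANNTTC or TTCNNGAA (each is its own reverse complement, and the forms can overlap), was in 23.0% of the 74 member windows, against 15.1% of all 32851 windows and 11.7% of the windows of genes detected on both arrays. A run of 3 units, GAANNTTCNNGAA or its reverse complement TTCNNGAANNTTC, was in 5.41% of member windows and 0.603% of all windows; the member windows with it belong to 2 genes, Hsph1 and Dnajb6, each with overlapping windows. The 8 members with a pair of units that were detected on both arrays had a median difference of -0.08, from -0.44 (Cct2) to 0.51 (Hsph1), against 0.02 for the 23 with a window and no match. A match is a description of letters, not of a bound site.

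The 120 bases before the start are shown 5′ to 3′ for the members with 3 units, for the near-identical inducible Hsp70 pair, and for Hspe1, whose window overlaps that of its divergent neighbour Hspd1. Capitals mark every match to a pair of units, and overlapping matches run together. The stretches, on GRCm38.p6 and from RefSeq, are Hsph1 at chr5:149636316-149636435 (minus strand, the more downstream of its starts), Dnajb6 at chr5:29735778-29735897 (plus strand, the more upstream of its starts), Hspa1a at chr17:34972157-34972276 (minus strand), Hspa1b at chr17:34959239-34959358 (minus strand) and Hspe1 at chr1:55088028-55088147 (plus strand).
Hsph1: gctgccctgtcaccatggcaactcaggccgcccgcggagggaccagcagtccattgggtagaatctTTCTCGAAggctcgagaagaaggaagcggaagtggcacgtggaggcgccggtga
Dnajb6: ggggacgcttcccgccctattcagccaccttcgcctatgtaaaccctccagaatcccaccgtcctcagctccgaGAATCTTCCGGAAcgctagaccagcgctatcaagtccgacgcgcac
Hspa1a: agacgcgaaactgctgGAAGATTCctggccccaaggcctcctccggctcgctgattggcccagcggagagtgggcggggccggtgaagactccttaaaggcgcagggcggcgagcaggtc
Hspa1b: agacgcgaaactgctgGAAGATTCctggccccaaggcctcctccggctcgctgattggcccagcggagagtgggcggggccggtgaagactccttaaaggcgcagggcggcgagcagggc
Hspe1: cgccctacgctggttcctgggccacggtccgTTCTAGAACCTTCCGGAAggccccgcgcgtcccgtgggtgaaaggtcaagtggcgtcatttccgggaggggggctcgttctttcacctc

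The Hspa1a and Hspa1b stretches were identical at 119 of 120 bases, with the match 104 bases before the start in both. In Hsph1 the run of 3 units lies after the start, beginning 15 bases past it, and in Dnajb6 it begins 46 bases before the more upstream of its 2 listed starts and 127 before the other. Of the members with 3 units in a searched window, Hsph1 differed by 0.51 on its single probe. Dnajb6 had no settled direction, at -0.27, -0.03 and 0.34 on its 3 detected probes and 0.01 for their mean. Hspe1 and Hspd1, which are not members, differed by 1.46 and 0.71.

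The chaperonin subunits lay slightly higher in Ago2 Hem KO, with a median difference of 0.11 over 6 of 9 genes detected on both arrays and 5 of the 6 above 0, a count that held in every background and normalization setting. Tcp1 gave 2892.4 in Ago2 Hem KO and 2068.9 in Control, a difference of 0.27, and its second probe gave 210.9 and 180.2, a difference of 0.04. Cct4 gave 2881.8 and 2074.6, a difference of 0.26. Cct6a gave 5218.4 and 4190.6, a difference of 0.13 on the brighter probe and -0.08 on the other. Cct8 differed by 0.10 (1863.2 and 1499.8) and Cct3 by 0.02 on the brightest probe (3667.3 and 3113.3). All these differences were under 1.25-fold. Cct2 was the exception in sign, at 110.4 in Ago2 Hem KO and 113.5 in Control, a difference of -0.44 near background that was -0.17 without background correction. Cct5 was detected in Ago2 Hem KO only, at 105.6 against 92.2, and Cct6b, known from testis, on neither array.

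J proteins form the largest group, with 22 of 37 genes detected on both arrays, a median difference of -0.06, and 8 above 0. Dnaja2, a main cytosolic partner of Hsc70, gave 172.9 in Ago2 Hem KO and 119.5 in Control, a difference of 0.73 (1.66-fold), the highest among the members. Its other probes, 2 in number, were not detected on either array. Dnajc12, which in humans is a co-chaperone of aromatic amino acid hydroxylases, gave 142.9 and 180.2, a difference of -0.92 (1.89-fold lower), the lowest among the members. A second Dnajc12 probe gave 116.4 and 115.8, a difference of -0.31, and a further one was not detected. Both genes were dim, and neither reached 1.5-fold without background correction, at 0.37 for Dnaja2 and -0.52 for Dnajc12, or in the authors' value table, at 0.33 and -0.47.

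The next highest J proteins were Dnajc15 and Dnajc19, related inner membrane proteins of the mitochondrial import machinery. Dnajc15 gave 1233.4 in Ago2 Hem KO and 851.3 in Control, a difference of 0.34 on a single probe. Dnajc19 gave 2089.7 and 1483.8 on its brightest probe, a difference of 0.28, while its other 2 detected probes, at signals under 120, differed by -0.16 and -0.15. Dnajc16 (0.19) and the ribosome-associated Dnajc2 (0.16) followed. Dnajc2 had the same sign on its second probe, at 0.27. The other mitochondrial J proteins, Dnaja3 (-0.18), Dnajc30 (-0.12), Dnajc11 (-0.09) and Dnajc28 (-0.38), lay below 0, so that 2 of the 6 mitochondrial ones were above 0.

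At the lower end after Dnajc12 came Dnajc4 at -0.44 (154.2 in Ago2 Hem KO and 161.3 in Control) and Dnajc28 at -0.38 (149.0 and 151.7), both dim. Dnajb6, which suppresses aggregation of polyglutamine proteins, differed in sign between its probes, at -0.27, -0.03 and 0.34, for signals of 573.9 and 587.0, 410.8 and 354.6, and 560.7 and 396.5 in Ago2 Hem KO and Control. These probes are annotated with different RefSeq transcripts of the gene. Dnajb12 differed by -0.21, and by 0.02 when the arrays were scaled to the same median.

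On their brightest probe, several J proteins with defined partners differed by under 0.1 in size. They were the synaptic vesicle co-chaperone Dnajc5 (-0.05), the auxilin gene Dnajc6 (-0.09), Dnajc7 with tetratricopeptide repeats that bind Hsp70 and Hsp90 (0.02), the spliceosome-associated Dnajc8 (0.08) and the diphthamide synthesis factor Dnajc24 (0.02). Second probes gave 0.32 for Dnajc8 (144.0 in Ago2 Hem KO and 117.2 in Control), 0.17 for Dnajc6, opposite in sign to the brightest, and -0.11 for Dnajc5. Dnajc17 (-0.10), Dnajb2 (-0.07) and Dnajc27 (-0.05) also lay near 0. Dnajc25, Dnajb4 and Dnajc9 were detected in Ago2 Hem KO only, at 118.3, 104.2 and 102.3 against 97.2, 97.5 and 92.6 in Control. Dnajc25 was at least 1.40-fold higher, and at least 1.12-fold without background correction, and the others bound no fold above 1. The Hsp70-binding exchange factor Hspbp1 differed by -0.03 and Hspbap1, which binds Hspb1, by -0.35.

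**Figure D2:**
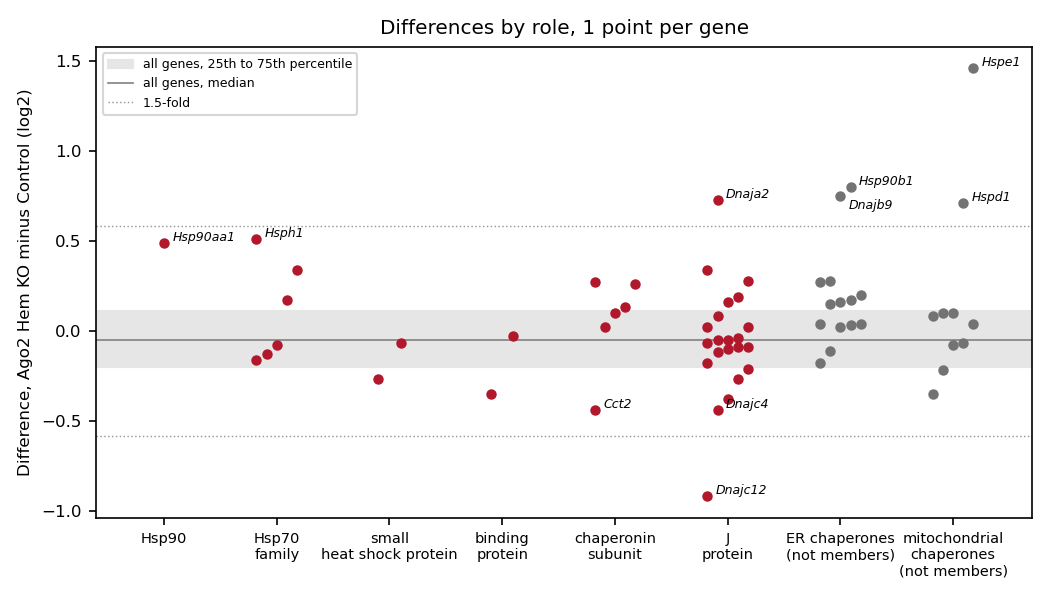
Log2 difference, Ago2 Hem KO minus Control (y axis), of each gene detected on both arrays, by role (x axis), with ER and mitochondrial chaperone lists at the right. The grey band spans the 25th to 75th percentile of all 8212 genes (-0.20 to 0.11); most members sit in or near it, and the points past the dotted 1.5-fold lines are Dnaja2 and Dnajc12 among members and Hsp90b1, Dnajb9, Hspe1 and Hspd1 outside them.

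At probe level, 56 member probes were detected on both arrays. At least 1.5-fold higher were 3 of them, against 2.31% of all named probes, and 1 was lower by that much, against 1.75%. The 3 higher ones belong to Dnaja2, Hsp90aa1 (the dim probe) and Hspa8. The Hspa8 probe ILMN_1249586 was also the only one past 2-fold, where 0.345% of all named probes were higher and 0.12% lower. Of 14 members with more than 1 probe detected on both arrays, all detected probes had the same sign in 9 and differed in sign in 5: Cct6a, Dnajb6, Dnajc19, Dnajc6 and Hspa8. The median gap between the 2 brightest probes of a gene was 0.22 for these members and 0.18 over all 3016 such genes. The differences of 24 of the 39 members are smaller than 0.22 in size, and those of Hsp90aa1, Hsph1, Dnaja2 and Dnajc12 are larger than 0.48, the 90th percentile of the gap over all genes. The 90th percentile over the 14 members was 0.56, which Hsp90aa1 (0.49) and Hsph1 (0.51) do not exceed. These gaps lie between probes on the same arrays and do not measure spread between arrays or animals. The detected probes of Dnajc12 themselves lay 0.61 apart. The share of all genes past the same cuts is not given here.

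**Figure D3:**
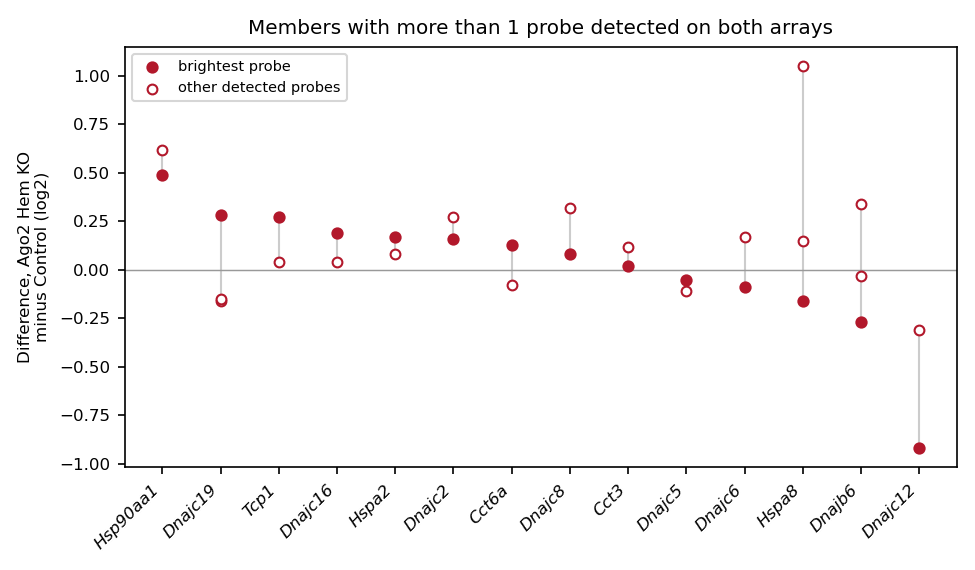
Log2 difference, Ago2 Hem KO minus Control (y axis), of every probe detected on both arrays, for the 14 members with more than 1 such probe (x axis). Filled points are the brightest probe and open points the others; the probes of Hspa8 span -0.16 to 1.05.

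Bright and dim members were also taken apart. Of the 24 members above the median level of all genes, all lay within 1.5-fold on their brightest probe, against 98.3% of all genes above that level. Their median difference was 0.02 with 14 above 0 (58.3%), against -0.03 and 44.1% for all genes above that level. Of the 15 dimmer members, 3 lay above 0 (20.0%), with a median of -0.10, against 39.6% and -0.08 for all dimmer genes. Both members past 1.5-fold were among the dimmer ones, where 94.1% of all genes lay within 1.5-fold.

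Co-chaperones and helpers outside the symbol rule were described from lists. Of 15 detected Hsp90 co-chaperones, 9 lay above 0 with a median of 0.06 and none reached 1.5-fold, from Stip1, the Hop protein that links Hsp70 to Hsp90, at 0.31 (2388.2 in Ago2 Hem KO and 1660.8 in Control) to the ubiquitin ligase gene Stub1 at -0.33. Of 9 Hsp70 co-chaperones, St13, which encodes the Hsp70-interacting protein Hip, was 1.83-fold higher, at 239.5 in Ago2 Hem KO and 144.6 in Control, and the others were under 1.5-fold, down to Sgta at -0.45. Of 8 prefoldin and chaperonin helper genes, the prefoldin subunit Vbp1 just passed 1.5-fold, at 192.7 in Ago2 Hem KO and 135.2 in Control, a difference of 0.59, on 1 of its 2 probes, the other not being detected. The remaining prefoldin and helper genes differed by -0.13 to 0.28. Among immediate early genes, which rise during cell handling as heat shock genes can, Fosb was 2.06-fold higher (174.9 and 110.8) and Jun was the lowest at -0.36, with a median of 0.05 over 11 detected genes. Whether handling bears on the chaperone values was not tested.

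Among the mitochondrial and ER chaperones that the rule leaves out, the 7 detected on both arrays had a median difference of 0.71, beside the -0.05 of the members. The mitochondrial chaperonin genes Hspe1 and Hspd1 were 2.75-fold and 1.63-fold higher, at 481.0 and 2659.5 in Ago2 Hem KO against 192.1 and 1430.3 in Control, and the second Hspd1 probe differed by 0.52. The ER Hsp90 gene Hsp90b1 was 1.74-fold higher (3692.3 and 1845.7) and the ER J protein gene Dnajb9 1.68-fold (319.1 and 190.3). A second Dnajb9 probe gave 126.1 in Ago2 Hem KO and 104.1 in Control, a difference of 0.38, under 1.5-fold. Hspe1 and Hsp90b1 each rest on a single probe. Hspa9 (0.08), Dnajc3 (0.03) and Dnajc10 (-0.11) differed little, and Hspa5, the ER Hsp70 gene, was detected in Ago2 Hem KO only, at 107.8 against 92.8. Of these 7 genes, 4 were at least 1.5-fold higher on their brightest probe, beside 1 of 39 members and 1.9% of all genes. The whole ER list had a median of 0.16 with 12 of 14 above 0, and the mitochondrial list a median of 0.06 with 6 of 10 above 0. Whether these lists differ from the cytosolic genes could not be tested with 1 array per genotype.

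**Figure D4:**
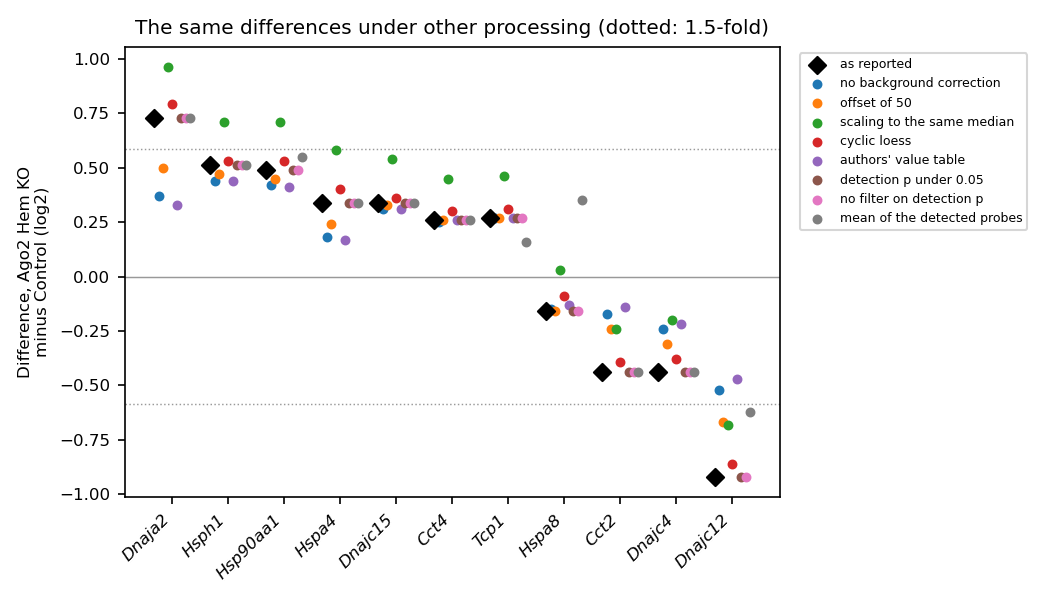
Log2 difference, Ago2 Hem KO minus Control (y axis), of 11 members (x axis) as reported (black diamonds) and under other processing settings (coloured points). Hsph1 (0.44 to 0.71), Hsp90aa1 (0.41 to 0.71), Dnaja2 (0.33 to 0.96) and Dnajc12 (-0.92 to -0.47) each lie on both sides of a dotted 1.5-fold line, Hsph1 and Hsp90aa1 passing it only with scaling to the same median.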

How the data were processed

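Total RNA from 2 samples, 1 per genotype, was amplified, labelled with biotin and read on Illumina bead arrays, per the labels' protocols. The deposited non-normalized table holds intensity on a linear scale and a detection p-value per probe and array, which comes in steps of 1 in 936. Per the submitters' processing notes the software was BeadStudio (version not stated). A second deposited intensity table, the authors' value table, ranks probes as the raw signals do and has medians of 86.17 for Ago2 Hem KO and 86.16 for Control; its normalization was not given in the sources used, and its log2 was an alternative.

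With limma 3.58.1 in R 4.3.3, background was inferred from the detection p-values, signals were corrected by normexp with an offset of 16 and quantile normalized, and log2 was taken. This removes changes shared by most genes, and it gave larger differences for dim members such as Dnaja2, Dnajc12 and Cct2 than signals without background correction did. A gene is its brightest probe among those detected (p under 0.01) on both arrays. The lower bound of a gene detected on 1 array sets its value against the higher of the dim value and the lowest detected value. Symbols came from the platform annotation (34885 probes with 1 symbol, 18 with several, 10378 with none), and 34807 matched RefSeq GRCm38.p6 by gene identifier, with 0 symbols changed. The steps were tested on simulated arrays that were given the same background. That test did not cover the background difference between the real arrays. Named genes were those of fixed roles, those past 1.5-fold, the 5 highest and 5 lowest J proteins, and extremes of each list. The members, 8 gene lists and 8 marker lists were chosen with earlier results of these data known. Dnajc5, Dnajc6, Dnajc7 and other members named beside these, and all printed sequences, were chosen after values were seen.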

Additional observations from a re-analysis of the deposited data

How the results depend on the processing

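No paired analysis was possible because each genotype has 1 array. The 9 alternatives left the median difference of the members within 0.1 of the reported -0.05, except scaling to the same median, which gave 0.17 and moved the median of all genes from -0.05 to 0.16, so that the members still lay at the median of all genes. The number of members at least 1.5-fold higher was 0 without background correction, with an offset of 50 and in the authors' value table, 3 with scaling to the same median (Dnaja2, Hsp90aa1 and Hsph1) and 2 with no filter on detection p (Dnaja2 and Hspa1a), against 1 as reported. The number at least 1.5-fold lower was 0 without background correction and in the authors' value table, against 1. All genes split into 156 higher and 156 lower as reported, 529 and 33 with scaling to the same median, 202 and 116 with cyclic loess, 76 and 39 with an offset of 50, 46 and 18 without background correction, and 42 and 15 in the authors' value table. Not all alternative values of the 25 named members could move. Both other detection p settings and the symbols not updated kept the same brightest probe, so those values equal the reported ones. The mean of the detected probes is likewise fixed for members with 1 detected probe. With these included, 184 of 225 values moved by less than 0.18, the median gap between probes of a gene. The sign differed in 8: scaling to the same median gave Dnajb1 0.16, Dnajb12 0.02, Hspa1b 0.11, Hspa8 0.03 and Hspb8 0.11, and the mean of the detected probes gave Dnajb6 0.01, Dnajc19 -0.01 and Hspa8 0.35. The lower bounds without background correction were an alternative chosen after seeing the data. Signal over background limits the dim members: background averaged 87.8 with an SD of 4.38 on the Ago2 Hem KO array, and 84.7 with an SD of 4.20 on the Control array. With 1 array per genotype no array could be left out and no spread between animals is known.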
